A study of Mus musculus with 6 samples.

Results

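The nuclear genes for the subunits of mitochondrial oxidative phosphorylation (OXPHOS) were examined in bulk RNA-seq of orthotopic ovarian tumors grown in wild-type (WT) and Tgm2 knockout mice. Members were chosen by gene symbol: Nduf followed by a, b, c, s or v and a digit, Sdha to Sdhd, and every symbol beginning with Uqcr, with Cox4 to Cox8, or with Atp5. Of 90 matching symbols, 5 with the ending -ps, which marks pseudogenes, were left out, and so were Cox7a1 and Cox8b, isoforms of muscle and brown fat that are given separately. The remaining 83 genes, of 20076 in the table, comprised 37 of complex I, 4 of complex II, 8 of complex III, 17 of complex IV and 17 of complex V. All 83 passed the filter on low values and were tested.

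Both groups were C57BL/6 mice of between 6 and 10 weeks of age that received the same ID8 Trp53-/- Brca1-/- mouse ovarian cancer cells by injection into the bursa of both ovaries, and primary tumors were collected 6 weeks later. There were 3 tumors from WT mice and 3 from Tgm2 knockout mice. The genotype names the host only: Tgm2, which encodes transglutaminase 2 (TG2), was missing from the host and not from the injected cells, which are a single edited line. The labels number the tumors but do not say that each came from a different mouse, so p-values measure the spread between these tumors. The labels call the material cancer cells, but RNA came from whole tumors. Markers of epithelial and ID8 cells were measured in every tumor. The most abundant, Wt1, had 19281, 16451 and 13131 normalized counts in the WT group against 17196, 14803 and 20641 in the knockout group. Krt8 had 14387, 21948 and 15814 in the WT group against 10373, 13629 and 14318 in the knockout group. It was 1 of 3 among 10 such markers whose groups were apart and lower, and 7 overlapped. RNA of other cells was measured beside these markers: the pan-leukocyte gene Ptprc lay between 1583 and 3173 normalized counts, the adipocyte gene Adipoq between 786 and 9593, and the steroidogenic gene Cyp11a1 between 158 and 22480.

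Values are read counts per gene after scaling by size factors, referred to as normalized counts. The 6 columns summed to between 32316613 and 37717165, and the value of 1 read lay between 0.942 and 1.08 normalized counts, so depth was similar across tumors. Host knockout was first checked on the targeted gene. Tgm2 measured 14978, 12155 and 13180 normalized counts in the WT group against 5853, 6071 and 8157 in the knockout group. The 3 knockout values were all below the lowest WT value, with a log2 fold change of -1.02 ± 0.22 (SE) and an adjusted p of 0.391 by limma.

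OXPHOS is the chain of enzymes in the inner mitochondrial membrane that makes most of the ATP of a resting cell. Complex I takes electrons from NADH and complex II from succinate, ubiquinone carries them to complex III, cytochrome c carries them to complex IV, where oxygen is reduced, and the protons pumped on the way drive the ATP synthase, complex V. Most subunits are encoded in the nucleus and imported, while a small set of core subunits is encoded by mitochondrial DNA (mtDNA), so the nuclear and the mitochondrial genome both supply each complex except complex II.

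No OXPHOS member differed between the groups past the limits of the study, which are 0.05 for the adjusted p and 1 for the size of the log2 fold change. By limma, 0 of 83 members were called higher, where the background over all 19667 genes tested was 0.102% higher, and 0 were called lower, where the background was 0% lower. The smallest adjusted p among the members was 0.891. At an unadjusted p of 0.05, 0 members were higher and 0 lower, where the background was 3.4% higher and 2.38% lower. The smallest unadjusted p of limma was 0.121, for Ndufa7. The groups did not overlap for 1 member, Sdha, which was higher in all knockout tumors, where the background of genes without overlap was 5.18% higher and 5.33% lower. A p that misses the threshold does not show equal levels. The median half-width of the members' 95% intervals was 0.589 on the log2 scale, so differences of up to about that size in single subunits were not resolved.

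The members' log2 fold changes, knockout over WT, ran from -0.55 to 0.56 with a median of -0.14, beside a median of -0.03 over all genes tested. They were above 0 for 25 members and below 0 for 58, where 47.3% of all genes lay above and 52.7% below. The median was -0.14 for complex I, 0.14 for complex II, -0.10 for complex III, -0.27 for complex IV and -0.06 for complex V. Single tumors decided the sign of the overall median. It was 0.03 without WT tumor 2, 0.01 without knockout tumor 1 and -0.33 without knockout tumor 2. The medians of single complexes turned as well: without WT tumor 2, complex I had 0.03, complex III 0.08 and complex V 0.10, and without WT tumor 3, complex II had -0.03. Complex IV kept its sign over all omissions of a tumor, from -0.46 to -0.05.

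**Figure D1:**
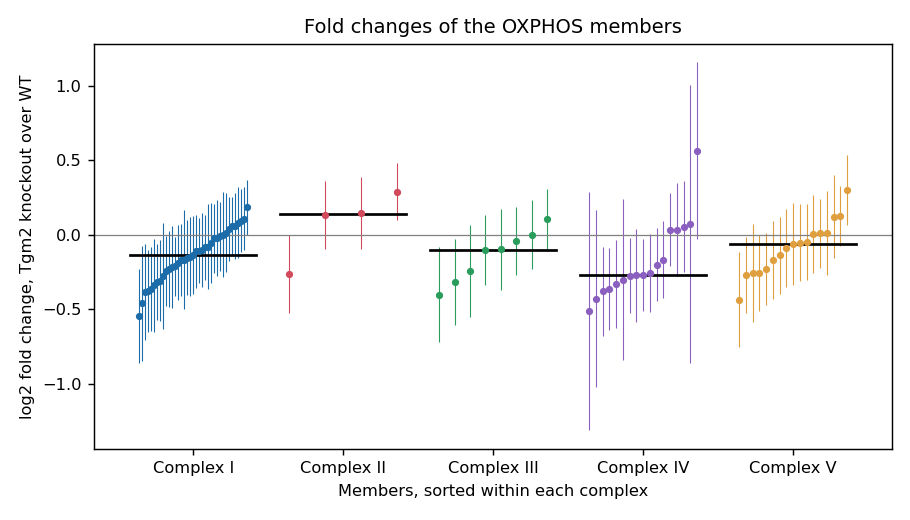
Log2 fold change of each OXPHOS member, knockout over WT, sorted within its complex on the horizontal axis; points are limma estimates, vertical lines the standard error and black bars the median of each complex. The black bars lie at -0.14, 0.14, -0.10, -0.27 and -0.06 for complexes I to V, and the widest error bars belong to low members of complex IV.

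The spread between tumors of a group exceeded the difference between groups for nearly all members. The within-group SD had a median of 0.342 on the log2 scale and the absolute difference between group means a median of 0.165. The difference was smaller than the SD for 78 of 83 members (94%), compared with 69% of all genes tested.

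That spread was shared by the members. WT tumor 2 held the highest value of 57 of 83 members (68.7%), compared with 19.4% of all genes, and knockout tumor 2 held the highest value of 19 more (22.9%). WT tumor 2 and knockout tumor 2 were the top pair, in either order, for 63 members (75.9%), compared with 11.6% of all genes. Other short and abundant genes shared much of this profile. Among other protein-coding genes with a mean value of at least 500, the same pair was on top for 45.1% of 102 genes with a principal transcript under 600 nucleotides and for 57.8% of 448 from 600 to under 1000, where the members had 67.9% and 85.7%. Longer genes shared it less. The pair was on top for 40.8% of 890 other genes from 1000 to under 1500 nucleotides, where the members had 83.3%. From 1500 nucleotides it was on top for 11% of 7854 other genes and 64.3% of members. The median deviation of those 102 genes was -0.20, 0.43 and 0.18 in the WT group against -0.46, 0.27 and -0.20 in the knockout group, and that of the 28 members under 600 nucleotides was -0.24, 0.47 and 0.11 against -0.38, 0.31 and -0.24. Knockout tumor 1 held the lowest value of 51 members (61.4%; 15.8% of all genes) and WT tumor 3 of 20. The members' mean log2 value, centred for each gene, was -0.16, 0.41 and -0.07 in the WT group, in the order of tumors 1 to 3, against -0.36, 0.29 and -0.12 in the knockout group. High and low tumors thus occurred under both genotypes. All 5 complexes had their highest median deviation in WT tumor 2 and their second highest in knockout tumor 2. In bulk RNA, fewer cells of a type and less RNA per cell cannot be told apart.

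**Figure D2:**
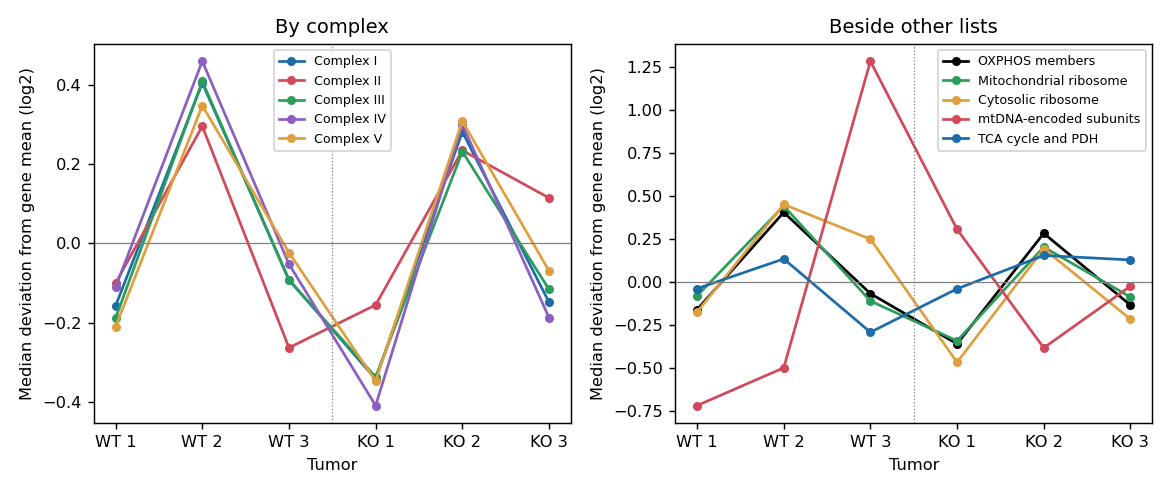
Median deviation of genes from their own mean over the 6 tumors (log2), for each complex on the left and for all OXPHOS members beside other gene lists on the right; lines join points for the eye only and the dotted line separates WT from knockout (KO) tumors. The OXPHOS members, both ribosome lists and all complexes are highest in WT tumor 2 and lowest in KO tumor 1, except that complex II is lowest in WT tumor 3, while mtDNA-encoded subunits are highest in WT tumor 3.

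The member closest to the mean profile was Uqcrb, a small subunit of complex III, at a root mean square distance of 0.04 on the log2 scale over the 6 tumors. It measured 3122, 4788 and 3420 normalized counts in the WT group against 2934, 4216 and 3356 in the knockout group, high in the same pair of tumors and overlapping between groups. Cox6b1 of complex IV and Atp5j2 of complex V followed at a distance of 0.046 each. The farthest were Cox6a2, Ndufa4l2 and Cox6b2 at distances of 0.868, 0.722 and 0.562, all isoforms or paralogs of complex IV rather than the common subunit.

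The members' promoters were searched for short sequence motifs, as a description of their sequence. RefSeq promoters on GRCm38.p6 matched 66 of 83 members, and the 250 bases before the start site were searched on both strands. The letters GCATGCGC, the core of the site of nuclear respiratory factor 1 (NRF1), a transcription factor of respiratory genes, were found in 8 of 66 members (12.1%) and in 2.6% of 27025 genes. The letters CCGGAAG, bound by ETS family factors including GABP, were found in 12 members (18.2%) and in 7.8% of genes. The letters GGGCGG of the SP1 site were found in 36.4% of members and 35.4% of genes, and CCAAT in 42.4% and 37.5%. None of these 4 words lies within another. Members' promoters were richer in G and C, at 56.6% against 53.2%, and held a mean of 15.8 CG dinucleotides against 9.9. A match of letters is a description, not a binding site or a cause.

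Stretches before the start site of 5 members are shown because they hold the NRF1 or ETS letters, given in capitals, outside every annotated exon. They are written 5′ to 3′ on the strand of the gene, and capitals that read CTTCCGG are the ETS letters on the opposite strand. In the window of Ndufa11 the NRF1 letters occur on both strands in overlapping places, so that the run of capitals is longer than in Ndufa6, where they occur on the strand of the gene alone.
Uqcrh: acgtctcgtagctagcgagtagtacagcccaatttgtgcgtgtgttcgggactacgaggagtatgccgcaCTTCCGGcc
Uqcr11: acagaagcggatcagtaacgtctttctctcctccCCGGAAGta
Atp5e: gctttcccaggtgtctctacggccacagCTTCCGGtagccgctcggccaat
Ndufa11: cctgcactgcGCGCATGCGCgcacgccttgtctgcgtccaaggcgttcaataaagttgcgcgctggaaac
Ndufa6: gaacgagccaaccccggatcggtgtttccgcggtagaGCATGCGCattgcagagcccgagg
They lie at chr4:116075072-116075150 (Uqcrh, minus strand), chr10:80406879-80406921 (Uqcr11, minus), chr2:174464181-174464231 (Atp5e, minus), chr17:56717692-56717761 (Ndufa11, plus) and chr15:82354351-82354411 (Ndufa6, minus). Over all 18 members with either set of letters, 4 had log2 fold changes above 0 and 14 below, with a median of -0.15, beside 14 above and 34 below, with a median of -0.12, among the other 48 members whose promoters were searched.

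In complex I, the genes of the core enzyme and of the surrounding accessory subunits had medians of opposite sign. The 7 core genes measured here had a median log2 fold change of 0.06, with 5 above 0 and 2 below, and the 29 accessory genes a median of -0.15, with 4 above 0 and 25 below. Single tumors decided both signs: the core median was -0.05 without WT tumor 3 and -0.04 without knockout tumor 2, and the accessory median was 0.02 without WT tumor 2. The core median was also -0.05 with the mean of epithelial markers as a covariate and -0.48 with that of white adipocyte markers. Ndufs1, an iron-sulfur subunit of the electron path, measured 2983, 3236 and 2481 normalized counts in the WT group against 3132, 3516 and 3200 in the knockout group. The WT values reached into the knockout range, and the log2 fold change was 0.19 ± 0.19 (SE) with an adjusted p of 0.909 by limma, falling to 0.08 without WT tumor 3. Ndufv1, which binds NADH, and Ndufs7, which lies at the ubiquinone pocket, had log2 fold changes of 0.04 and 0.11. The core genes below 0 were Ndufs8 at -0.02 and Ndufv2 at -0.23, both carriers of iron-sulfur clusters, and Ndufs3 had 0.06. The accessory genes above 0 were Ndufa12 at 0.09, Ndufa5 at 0.08, Ndufa1 at 0.02 and Ndufa13 at 0.001.

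Ndufa7, an accessory subunit of the matrix arm, had the lowest log2 fold change of all members. It measured 3865, 7272 and 6116 normalized counts in the WT group against 2830, 5464 and 3568 in the knockout group. The highest knockout tumor exceeded the lowest WT tumor, so the groups overlapped, and the log2 fold change was -0.55 ± 0.32 (SE; adjusted p of 0.891 by limma), or -0.33 without knockout tumor 1. Ndufb9, the most abundant complex I gene by mean value, measured 5970, 11485 and 8464 in WT and 4607, 8956 and 6358 in knockout tumors, with a log2 fold change of -0.38 ± 0.32. It was -0.14 without knockout tumor 1, -0.15 without WT tumor 2 and -0.62 without knockout tumor 2. Ndufb4, next lowest in the complex at -0.46 and between -0.88 and -0.18 on leaving out a tumor, shares sequence with the copy Ndufb4c, all of whose 31-base words occur in other genes, so the split of reads between them is uncertain. Ndufa7 lies at chr17:33824572-33838317, Ndufb9 at chr15:58933756-58939488 and Ndufs1 at chr1:63143596-63176833 on GRCm38.

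Complex II, succinate dehydrogenase, also an enzyme of the TCA cycle, held the only member whose groups were apart. Sdha, the flavoprotein that oxidizes succinate, at chr13:74322254-74350280, measured 7653, 6955 and 7456 normalized counts in the WT group against 9312, 7891 and 9903 in the knockout group. The lowest knockout value, in tumor 2, still exceeded the highest WT value, in tumor 1. The log2 fold change was 0.29 ± 0.19 (SE; adjusted p of 0.891 by limma). The 3 other genes overlapped between groups: the iron-sulfur subunit Sdhb had a log2 fold change of 0.13, and the membrane anchors Sdhc and Sdhd had 0.15 and -0.26. Sdha was also unlike the common profile, since WT tumor 2 held its lowest value.

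In complex III, the 3 core genes had log2 fold changes close to 0, and the 5 small subunits were all below 0. Uqcrc1 measured 0.11, Uqcrc2 0.00 and the Rieske iron-sulfur protein Uqcrfs1 -0.04. The small subunits had a median of -0.24, which turned to 0.02 without WT tumor 2. The hinge protein Uqcrh, which helps dock cytochrome c, at chr4:116066965-116075071, measured 4879, 9337 and 9263 normalized counts in the WT group against 4639, 7776 and 5086 in the knockout group. WT tumor 1 lay with the low knockout tumors, and the log2 fold change was -0.40 ± 0.32 (SE; adjusted p of 0.898 by limma). It was -0.71 without WT tumor 1 and -0.24 without WT tumor 2.

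Complex IV, cytochrome c oxidase, had the lowest median and the widest range of the complexes. Its 11 common subunits had a median of -0.26, with 3 above 0 and 8 below. Cox4i1, the most abundant by mean value, at chr8:120668222-120674207, measured 12651, 21096 and 17436 normalized counts in the WT group against 10190, 19006 and 13653 in the knockout group. The groups overlapped over most of their range, and the log2 fold change was -0.27 ± 0.31 (SE; adjusted p of 0.916 by limma). It was -0.05 without knockout tumor 1 and -0.50 without knockout tumor 2. Cox7b, on chromosome X, had the smallest p of the complex, with a log2 fold change of -0.36 ± 0.27 and an adjusted p of 0.896, and ran from -0.61 without knockout tumor 2 to -0.20 without knockout tumor 1. The common subunits above 0 were Cox8a at 0.06, Cox6a1 at 0.04 and Cox5a at 0.03, and the lowest was Cox7c at -0.38. All 4 overlapped between groups, with Cox8a running from 7991 to 15213 normalized counts in WT tumors alone. Cox7a2l, which joins complexes III and IV into supercomplexes, had a log2 fold change of -0.27.

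Subunits that replace each other within complex IV were compared as shares of their summed normalized counts. Cox4i2, which takes the place of Cox4i1 in lung and under low oxygen, measured 36.7, 113 and 35.6 normalized counts in WT and 70.7, 104 and 66.5 in knockout tumors. Its share of the summed Cox4i1 and Cox4i2 was 0.289%, 0.532% and 0.204% in WT tumors and 0.689%, 0.544% and 0.484% in knockout tumors. WT tumor 2 lay within the knockout range, and the difference of 0.231 percentage points had p = 0.2 in a two-sided exact permutation test, which cannot go below 0.1 with 3 tumors a group, and an adjusted p of 0.9 over 8 shares.

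Ndufa4l2, a paralog of the complex IV subunit Ndufa4 that is induced by low oxygen, measured 1137, 2149 and 322 normalized counts in the WT group against 597, 789 and 684 in the knockout group. The 3 knockout tumors lay inside the range of the WT tumors, which differed by 6.68-fold. Its share of the summed Ndufa4 and Ndufa4l2 was 22.9%, 24.2% and 4.51% in WT and 13.7%, 11.5% and 15.0% in knockout tumors (exact permutation p = 0.5). Hypoxia genes, a list of 15, had a median log2 fold change of -0.28 with 0 called. At an unadjusted p of 0.05, 4 of them (Vegfa, Car9, Egln3 and Pdk1) were lower, and the groups did not overlap for the same 4, where the background was 2.38% and 5.33%. Vegfa had the lowest log2 fold change of these, -1.35 (adjusted p of 0.644 by limma). WT tumor 3, the lowest for Ndufa4l2, held the highest Vegfa value at 15173 normalized counts.

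The muscle isoform Cox6a2 stayed between 4.7 and 36.3 normalized counts, the testis isoform Cox6b2 between 53.2 and 144, and the pseudogene Cox6c2 between 0.93 and 4.69, which rests on a few reads. Cox7a1, outside the rule, was between 110 and 280 and had a log2 fold change of -0.13. Cox8b, also outside, measured 128 normalized counts in knockout tumor 2 and between 3.75 and 15.6 in the others. The brown fat gene Ucp1 was also highest in that tumor, at 183 in knockout tumor 2 and between 0 and 3.79 in the others. The brown fat list did not share this pattern, since knockout tumor 2 was highest for 4 of 12 markers tested. Its summed normalized counts, with Pank1 the most abundant, were 2445, 2754 and 2488 in WT and 5509, 3399 and 6304 in knockout tumors.

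**Figure D3:**
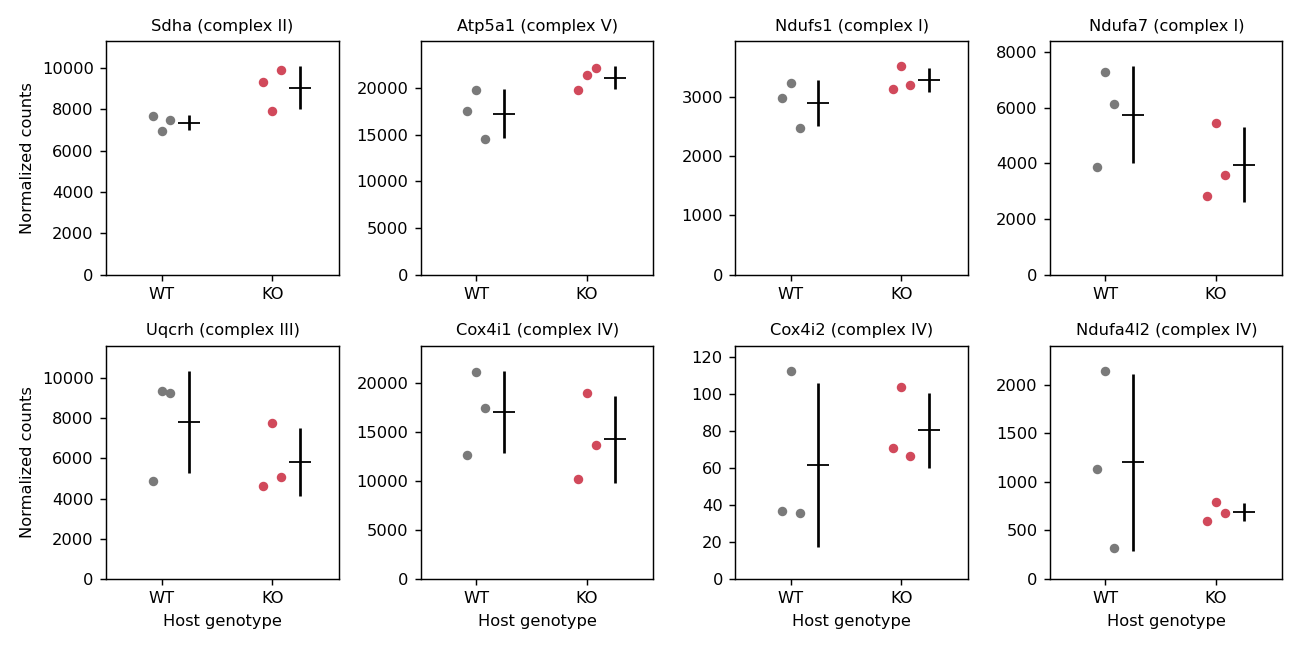
Normalized counts of 8 members in each WT and Tgm2 knockout (KO) tumor; grey and red points are single tumors, the horizontal black mark is the group mean and the vertical line its SD (n = 3), and each axis starts at 0. Sdha is the panel whose groups do not overlap, and in the panels of Cox4i2 and Ndufa4l2 all 3 KO tumors fall within the WT range.

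In complex V, the genes of the catalytic F1 head and those grouped here as Fo again had medians of opposite sign. The medians were 0.12 for 5 F1 genes and -0.11 for 12 Fo genes. These signs rested on single tumors too. The F1 median was -0.03 without WT tumor 3 and -0.002 without knockout tumor 2. It was also -0.03 with the epithelial marker mean as a covariate and -0.46 with the white adipocyte marker mean. The Fo median was 0.04 without WT tumor 2 and 0.05 without knockout tumor 1. Atp5a1, the F1 alpha subunit, measured 17467, 19770 and 14497 normalized counts in the WT group against 19764, 21317 and 22158 in the knockout group. Knockout tumor 1 and WT tumor 2 were almost equal, and the groups overlapped by only that pair, with a log2 fold change of 0.30 ± 0.24 (SE; adjusted p of 0.897 by limma), or 0.18 without WT tumor 3. Atp5b, the catalytic beta subunit at chr10:128083273-128090391, had the highest mean value of all members. It measured 26297, 30634 and 20666 in WT tumors and 23596, 32994 and 27560 in knockout tumors, which overlapped widely (log2 fold change 0.12 ± 0.28, or -0.03 without WT tumor 3). Of the other F1 genes, Atp5d had 0.12, Atp5c1 had -0.05 and Atp5e, whose promoter stretch was given, had -0.26. Atp5md, a small Fo subunit at chr19:47083464-47090647, had the smallest p of the complex, with a log2 fold change of -0.43 ± 0.32 and an adjusted p of 0.896 by limma. It ran from -0.71 without WT tumor 1 to -0.23 without knockout tumor 1.

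The rotor ring of complex V is built from subunit c, which 3 genes encode as the same mature protein. Atp5g1, on chromosome 11, gave 25.8% ± 0.91 (SD, n = 3) of their summed normalized counts in the WT group and 25.9% ± 1.82 in knockout tumors. Atp5g2, on chromosome 15, gave 4.02% ± 0.30 and 4.03% ± 0.24, and Atp5g3, on chromosome 2, gave 70.1% ± 0.80 and 70.0% ± 1.66. The 3 differences had p of 0.9, 0.9 and 0.8 by exact permutation. All 31-base words of Atp5g2 and 67.3% of those of Atp5g1 occur in other genes, so their split is uncertain.

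Across all members, 25 of 83 had a log2 fold change above 0. Complex IV had no gene in the core class used here, and its 11 common subunits had a median of -0.26. In complexes I, II, III and V, the 19 core and F1 genes had a median log2 fold change of 0.06, with 13 above 0 and 6 below. Their median was -0.04 without WT tumor 3, with 6 above 0, and -0.004 without knockout tumor 2, with 7 above 0. With the epithelial marker mean as a covariate it was -0.04, with 6 above 0. With the white adipocyte marker mean it was -0.46, with 2 above 0. Transcript length moved with this division. The 28 members with a principal transcript under 600 nucleotides had a median log2 fold change of -0.20, the 28 from 600 to under 1000 had -0.18, the 12 from 1000 to under 1500 had -0.04 and the 14 of 1500 and over had 0.05. Other protein-coding genes had medians of -0.25, -0.17, -0.11 and 0.02 in the same classes. Across the 82 members with a length, the fold change and the length had a Spearman rho of 0.42, beside 0.14 across 16508 other protein-coding genes. Genes share tumors and are not replicates, and the part of length in the difference between subunit classes was not tested.

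**Figure D4:**
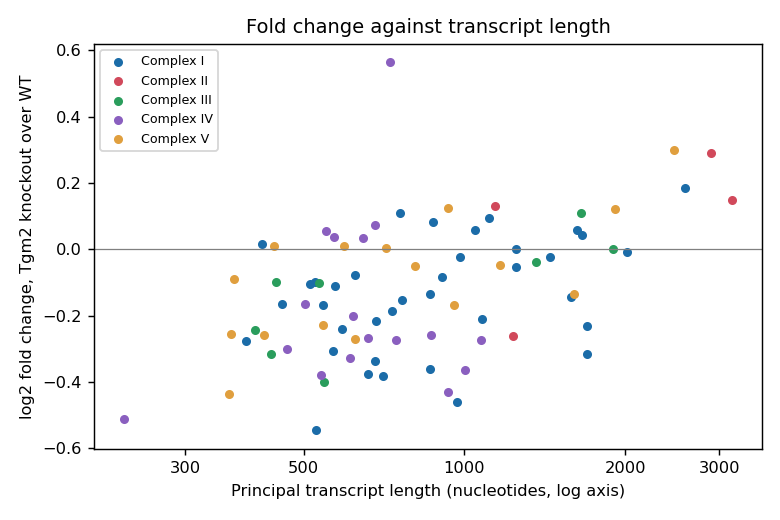
Log2 fold change, knockout over WT, of the 82 OXPHOS members with an annotated length against the length of their principal GENCODE M21 transcript (nucleotides, log axis), coloured by complex. Short transcripts lie mostly below 0, with a median of -0.20 under 600 nucleotides, and the longest lie around or above 0, with a median of 0.05 from 1500 nucleotides.

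Levels were compared between genes per kilobase of principal transcript. The median of mean normalized counts per kilobase was 3143 for complex I, 2742 for complex II, 7063 for complex III, 7167 for complex IV and 7414 for complex V. The highest level per kilobase within each complex was that of Cox4i1 in complex IV (21036), Atp5g3 in complex V (19561), Uqcrq in complex III (13050) and Ndufb9 in complex I (10852), while Cox8a of complex IV (20453) also exceeded Atp5g3. Within complex II, the order ran from Sdhd at 4264 down to Sdhc at 1679. These are levels over all 6 tumors and carry no comparison of the groups.

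The nuclear members were then set beside the 13 subunits encoded by mtDNA. In sum, the members took 1%, 1.42% and 1.11% of all normalized counts in the WT group and 0.96%, 1.30% and 0.98% in knockout tumors (exact permutation p = 0.5). The mtDNA-encoded subunits took 1.79%, 2.02% and 7% in WT and 3.59%, 2.32% and 2.58% in knockout tumors (exact permutation p = 1). WT tumor 3 stood apart: it held the highest value of all 13 mtDNA genes, with mt-Co1, the catalytic subunit of complex IV, at 805744 normalized counts and between 200143 and 334890 in the other tumors. Its nuclear members were not high, with a mean centred value of -0.07. The log2 ratio of summed members to summed mtDNA-encoded subunits was -0.84, -0.52 and -2.66 in WT and -1.91, -0.84 and -1.40 in knockout tumors. The difference in its means was -0.04 (exact permutation p = 1), and single tumors decided it. It became -0.70 without WT tumor 3, the tumor that stood apart, and -0.32 without knockout tumor 2, while it was 0.21, 0.37 and 0.22 without WT tumor 1, WT tumor 2 or knockout tumor 1. With means of log2 values in place of sums, the difference with all tumors was -0.16 (exact permutation p = 0.8). Libraries were made from polyA RNA, and how the tail of mitochondrial transcripts affected their capture was not tested.

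**Figure D5:**
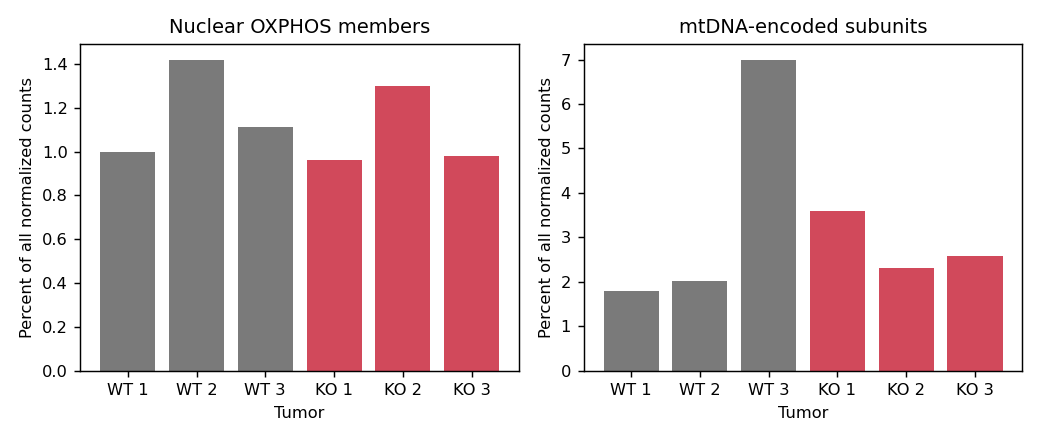
Share of all normalized counts (percent) taken by the 83 nuclear OXPHOS members and by the 13 mtDNA-encoded subunits in each tumor; grey bars are WT and red bars knockout (KO) tumors, and the vertical axes differ in scale. Nuclear shares lie between 0.96% and 1.42%, while the mtDNA share is 7% in WT tumor 3 and at most 3.59% elsewhere.

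The other genes of the pathway showed 0 calls past the adjusted limits in either direction. Assembly factors, 48 genes that put the complexes together, had a median log2 fold change of -0.16 (11 above 0 and 37 below), and WT tumor 2 held the highest value of 35 of them. The groups were apart for 1 that was higher (Acad9) and 2 that were lower (Ndufaf7 and Atpaf2), where the background was 5.18% and 5.33%. Within them, Ndufaf7, a methyltransferase for a core subunit of complex I, had -0.48 ± 0.22 (adjusted p of 0.88 by limma). The electron carriers and the coenzyme Q pathway, 17 genes, had a median of 0.07, with 9 above 0, and 2 of 17 were apart between groups and higher, where the background was 5.18%. These were the kinase-like gene Coq8a (0.45 ± 0.21) and Pdss2, which acts in the making of the coenzyme Q tail (0.58 ± 0.28), each with an adjusted p of 0.881 by limma. The TCA cycle and pyruvate dehydrogenase, 18 genes that deliver electrons to the chain, had a median of 0.16, with 15 above 0 and 3 below. The 1 gene whose groups were apart, Dlst, lay lower in the knockout group, at -0.13, where the background was 5.33% lower. In this list WT tumor 3, not knockout tumor 1, was lowest for 15 of 18 genes. Fatty acid oxidation, 16 genes, had a median of 0.09 with 13 above 0 and 1 apart and higher (Hadha, 0.35), where the background was 5.18% higher. The 11 carriers and uncouplers had a median of 0.06.

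The coactivator Ppargc1a, which switches on mitochondrial genes, measured 166, 166 and 278 normalized counts in the WT group against 439, 298 and 499 in the knockout group. The knockout values were all above the WT values, and the log2 fold change was 1.03 ± 0.35 (SE; adjusted p of 0.759 by limma). In its list of 20 regulators, Nrf1 had -0.08 and the mtDNA packaging factor Tfam -0.10. The list had a median of -0.14, with 5 of 20 above 0. In it 2 genes were apart and higher, Ppargc1a and its relative Ppargc1b (0.89), where the background was 5.18%. Among subunits outside the rule, cytochrome c1 (Cyc1) had -0.04, the acyl carrier Ndufab1 had 0.04 and Atpif1, the inhibitor of the ATP synthase, had -0.56 ± 0.26 (adjusted p of 0.88).

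Markers of fat cells were measured beside the members. All 23 white adipocyte markers had log2 fold changes above 0, with a median of 1.63, and 1 was called higher, Lep (3.74, adjusted p of 0.0393 by limma), where the background was 0.102%. At an unadjusted p of 0.05, 17 were higher, where the background was 3.4%, and the groups were apart for 12 markers, where it was 5.18%, and overlapped for 11. Their summed normalized counts were 67613, 79321 and 54607 in WT tumors and 78309, 271221 and 175436 in knockout tumors, with Lpl the most abundant, so that knockout tumor 1 lay within the WT range. Their mean log2 value was 8.92, 9.63 and 9.11 in WT and 10.2, 11.8 and 10.9 in knockout tumors, and these means did not overlap. When this mean was added to the model as a covariate, the members' median log2 fold change became -0.98, and 44 of 83 members were lower at an unadjusted p of 0.05, where the background in that fit was 5.32% lower. In the same fit 0 members were higher at that limit, where the background was 4.52% higher. No member passed the adjusted limit in that fit (smallest adjusted p of 0.45 by limma). Host genotype and this mean cannot be told apart with 3 tumors a group.

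Other lists were also measured in each tumor. Luteal and steroidogenic markers, of which Star was the most abundant, summed to 26874, 15611 and 8100 in WT and to 72842, 11934 and 12845 in knockout tumors, and knockout tumor 1, the lowest for most members, was highest for 9 of 12 of them. Epithelial and ID8 cell markers, 10 genes, had a median log2 fold change of -0.42, with 3 above 0 and 7 below. They summed to between 72576 and 84528 in WT and between 60172 and 70396 in knockout tumors, so that the sums did not overlap. Their mean log2 values did overlap, at 11.7, 12.03 and 12.4 in WT against 12, 11.67 and 11.47 in knockout tumors. The groups were apart and lower for 3 of 10 markers (Krt8, Krt19 and Upk1b), where the background was 5.33%, and overlapped for 7. The most abundant marker, Wt1, had 0.11 and was among those that overlapped. Proliferation genes had a median of 0.32 and were lowest in WT tumor 3. Cytosolic ribosomal proteins, 82 genes, had a median of -0.35, with 78 below 0, WT tumor 2 highest for 63 and knockout tumor 1 lowest for 68. Mitochondrial ribosomal proteins, 78 genes, had a median of -0.14, with WT tumor 2 highest for 67. The part of these cells and lists in the members' values was not tested.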

How the data were processed

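RNA from 3 WT and 3 Tgm2 knockout tumors was sequenced by the authors as paired reads from polyA libraries. Per the labels and the methods, the authors quantified transcripts with kallisto 0.46.2 on GRCm38, added these up per gene with biomaRt, filtered out low genes and scaled the rest with the estimateSizeFactors function of DESeq2. The deposited values are a signal in normalized counts, and not the TPM of their label, given the column sums. Closeness to whole reads was checked on low values of a few reads only. Of these, 92.5% to 99.2% lay close to a whole number for genes with a single transcript. For the other genes it was 41.6% to 49.2%. The value of 1 read was chosen to fit the single-transcript genes best, so their percentages are raised by that choice. Whole counts were not recovered for all genes, so no count model was fitted.

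R 4.3.3 with limma 3.58.1 was run on log2(value + 1), so that fold changes of low genes are understated. Testing covered the 19667 genes that reached a value of 1 in 3 or more tumors, with no covariate, a trend of variance on mean and two-sided tests adjusted by Benjamini-Hochberg over all of them. Tumors were grouped by genotype labels. Single values per tumor were compared by exact permutation (scipy 1.17.1, Python 3.11.15), whose smallest p for 3 against 3 is 0.1. Depth was estimated from the value of 1 read, which lay between 0.942 and 1.08 normalized counts. Gene positions and lengths were taken from GENCODE M21, and 31-base words were compared over all its transcripts. Atp5o had no unique match there.

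The members and lists were chosen with earlier results of these data known. Named genes were Tgm2, the 5 highest and 5 lowest members, the most abundant and smallest-p member of each complex and gene of each other list, core subunits, isoforms, and the 3 members closest to and farthest from the mean profile; genes such as Uqcrc2, Uqcrq, Cox7a2l, Cox8a, Ndufa12, Atp5d, Tfam, Pdss2, Acad9, Atpaf2, Dlst, Hadha, Ppargc1b, Car9, Egln3, Pdk1, Ucp1, Cyp11a1, Krt19, Krt8, Ptprc, Adipoq and those with printed promoters were named outside this rule, after their values were seen. Values of 1 core subunit are not reported here. Alternatives changed the pseudocount, filter, scaling, block, weights, trend and covariates, and left out each tumor.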

Additional observations from a re-analysis of the deposited data

How the results depend on the processing

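Of 722 fold changes, medians, ratios and differences in shares recomputed under the alternatives, 633 kept their sign and 89 changed it. No member passed the adjusted limits under any alternative run. The genes called over the whole table fell from 20 to 5 with the replicate block, 4 without the variance trend, 12 with the epithelial covariate and 0 with the adipocyte covariate. Leaving out a tumor gave 8, 2 and 13 for WT tumors 1 to 3 and 11, 11 and 14 for knockout tumors 1 to 3. In deviations from the group means, same-numbered tumors correlated at -0.196, 0.284 and -0.307 for numbers 1 to 3. Tumors of different numbers correlated at between -0.231 and 0.359. With 3 tumors a group, these correlations cannot decide whether tumors of the same number were handled together. At an unadjusted p of 0.05, the background of the main fit was 2.38% lower, and that of the block fit and of the omissions is not given here. With the replicate number as a block 2 members were lower at that limit. Leaving out each tumor gave 0 to 3 such members and members' medians from -0.325 to 0.030, with -0.320 to 0.027 for complex I, -0.033 to 0.276 for complex II, -0.283 to 0.082 for complex III, -0.459 to -0.051 for complex IV and -0.232 to 0.105 for complex V. Complex II also turned with the epithelial covariate, to -0.032. Restrictions of the members chosen after seeing the data, without isoforms, paralog and copies and without members sharing most of their 31-base words, gave -0.111 and -0.123. With the adipocyte covariate 44 members were lower at an unadjusted p of 0.05 by limma, where the background in that fit was 5.32% lower. Host genotype and this covariate cannot be told apart. The members' median in that fit was -0.977 in all, -0.968 in complex I, -0.442 in complex II, -0.984 in complex III, -1.112 in complex IV and -0.940 in complex V. Signs turned with this covariate in Cox4i2 (-0.724), Ndufs1 (-0.059), Sdhc (-0.448), Atp5b (-0.464), Ndufv1 (-0.409), Ndufs7 (-0.484), Sdhb (-0.436), Uqcrc1 (-0.119), Atp5g1 (-0.665), Atp5g2 (-0.857), Atp5g3 (-0.759), Cox6a2 (-2.88) and Cox8b (-3.349). With the mean of epithelial markers as covariate they turned in Sdhc (-0.026), Atp5b (-0.048), Ndufv1 (-0.091), Sdhb (-0.037), Uqcrc1 (-0.037), Atp5g1 (-0.165), Atp5g2 (-0.203), Atp5g3 (-0.135), Cox6a2 (-0.894), Cox7a1 (0.008) and Cox6b2 (0.269). Values near 0 also turned with quantile normalization (Atp5g1 -0.027, Atp5g3 -0.014), equal column sums (Atp5g1 -0.012, Atp5g2 -0.011, Atp5g3 -0.018) and weights of tumors (Atp5g2 -0.047, Atp5g3 -0.026, Cox6a2 -0.057, Cox7a1 0.036). Over the 6 omissions of a tumor, the log2 ratio of members to mtDNA-encoded subunits differed by -0.705 to 0.369, and shares differed by -0.0225 to 0.0937 percentage points for Cox6a2, -0.477 to 0.908 for Cox7a1, -0.958 to 0.693 for Atp5g1, -0.159 to 0.135 for Atp5g2 and -0.581 to 0.865 for Atp5g3. Log2 fold changes ranged from -0.031 to 0.345 for Sdhc, -1.188 to 0.180 for Ndufa4l2, -0.031 to 0.253 for Atp5b, -0.083 to 0.201 for Ndufv1, -0.004 to 0.235 for Ndufs7, -0.035 to 0.300 for Sdhb, -0.038 to 0.187 for Uqcrc1, -0.151 to 0.145 for Uqcrfs1, -0.101 to 0.190 for Atp5g1, -0.180 to 0.188 for Atp5g2, -0.149 to 0.175 for Atp5g3, -0.539 to 0.879 for Cox6a2, -0.538 to 0.131 for Cox7a1, -0.242 to 0.083 for Uqcrb, -0.376 to 0.015 for Atp5j2 and -0.664 to 0.005 for Cox6b2. Of the single genes that kept their sign, Cox4i2 ranged from 0.284 to 1.103, Cox6b1 from -0.378 to -0.034, Cox6c2 from -0.983 to -0.237 and Cox8b from 0.015 to 2.398, while Sdha (0.222 to 0.386) and Tgm2 (-1.167 to -0.928) moved by less than 1.5 times on these omissions. With the adipocyte covariate Sdha moved from 0.291 to 0.586, while the members' median was -0.977. The cause of these changes was not tested. Depth limits Cox6c2 and the lowest values of Cox6a2 and Cox8b, at a few normalized counts, and 3 tumors a group limit all single-gene calls.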

Other observations

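Plasma cell markers, 11 genes, had a median log2 fold change of 2.24, with 3 called higher by limma, where the background was 0.102%, and Jchain, the joining chain of secreted antibodies, measured 1461, 2231 and 2511 normalized counts in WT tumors and 42273, 62782 and 67245 in knockout tumors (adjusted p of 0.000989). Leukocyte markers, 10 genes, were all above 0 with a median of 0.50 and 0 called, and Cd52, a surface glycoprotein of lymphocytes, had 1.23 ± 0.31 (adjusted p of 0.566). Glycolysis enzymes, 16 genes, had a median of 0.01, with 9 above 0, and Gapdh had 0.13 ± 0.37. The 13 mtDNA-encoded subunits had a median of -0.005, with 6 above 0; mt-Atp6, a subunit of the ATP synthase, had the highest of their log2 fold changes, 0.62 ± 0.60 (adjusted p of 0.908). Brown fat markers, 12 tested, had a median of 1.04, with 8 above 0 and 0 called. Skeletal and cardiac muscle markers, 15 tested, had a median of -0.02.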
